A study of Homo sapiens with 8 samples.

Results

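CASP1, CASP2, CASP4, CASP6, CASP8, CASP9, CASP10 and GSDMD encode 7 caspases and gasdermin D, proteins that carry out or start programmed cell death. They were chosen by name, and every probe set that the platform annotation pairs with exactly 1 of these symbols was taken, which gave 37 probe sets for the 8 genes among 45253 probe sets for 18239 genes. The arrays held RNA of the cell line NS-SV-AC, human acinar cells of the salivary gland that were immortalised, after 2, 6, 12 or 24 h with TNF-α at 20 ng/ml (4 arrays, called TNF here) or bovine serum albumin as the control protein (4 arrays, called BSA). Each treatment at each time had 1 array, so there is no replicate, and no label says that arrays came from separate cultures. The p-values below measure only the spread between these arrays. In the fits of the mean difference the times stand in for replicates, so a difference that changes with time adds to that spread. Levels are log2 values, differences are TNF minus BSA at the same time on that scale, and a difference of 1 is 2-fold.

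Caspases are cysteine proteases that cut their targets after aspartate. Caspases 8 and 10 start apoptosis below death receptors of the TNF receptor family, caspase-9 starts it from the apoptosome after mitochondrial damage, caspase-2 can be activated on the PIDDosome, and caspase-6 is counted among the executioners. Caspases 1 and 4 belong instead to inflammation: caspase-1 is activated in inflammasomes and matures interleukin-1β and interleukin-18, caspase-4 senses intracellular lipopolysaccharide, and both cut gasdermin D, whose freed part forms pores in the plasma membrane. All these proteases are made as inactive precursors, so the level of an mRNA is not a measure of activity.

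CASP1 and CASP4 lie near each other on chromosome 11, and CASP10 and CASP8 on chromosome 2. Because CASP1 and CASP4 had the highest differences of the 8 genes and CASP8 sat at the other end at 24 h, the RefSeq promoter windows of CASP4 and CASP8 are shown, 250 bases before to 50 after the annotated start in GRCh38.p14. CASP1 and CASP10 have no entry in the promoter table, and CASP8 has 3, of which the one with matches is given. Capitals mark matches, on either strand, to GAAANNGAA (the core of the interferon-stimulated response element), TTCNNNGAA (the interferon-γ activated site) or GGNNNTTCC (a core shared by NF-κB sites); the motifs overlap at no base here.
CASP4 promoter, chr11:104968525-104968824, minus strand: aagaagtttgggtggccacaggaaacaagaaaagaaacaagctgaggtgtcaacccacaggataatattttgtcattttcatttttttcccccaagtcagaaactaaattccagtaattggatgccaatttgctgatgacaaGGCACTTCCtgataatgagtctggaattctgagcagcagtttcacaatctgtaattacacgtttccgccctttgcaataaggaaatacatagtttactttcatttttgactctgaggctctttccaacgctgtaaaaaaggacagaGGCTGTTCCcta
CASP8 promoter, chr2:201233213-201233512, plus strand: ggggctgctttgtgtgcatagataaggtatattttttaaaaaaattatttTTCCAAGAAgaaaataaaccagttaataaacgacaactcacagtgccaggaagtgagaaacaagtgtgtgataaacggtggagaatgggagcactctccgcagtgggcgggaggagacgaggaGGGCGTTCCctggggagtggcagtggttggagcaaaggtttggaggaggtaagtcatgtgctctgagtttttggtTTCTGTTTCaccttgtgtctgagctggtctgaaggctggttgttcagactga
The CASP4 window held the NF-κB core at 2 places and neither interferon motif. In the CASP8 window each of the 3 motifs occurred at 1 place. Of all 35116 promoter windows of this length, 8.1% held the response element core, 7.7% the activated site and 20.1% the NF-κB core. Across the 9 windows of 5 genes that were searched, CASP6 held the NF-κB core at 2 places, and the windows of CASP2 and CASP9 and the other two of CASP8 had no match. These matches describe letters in a window only.

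The TNF array at 24 h stood apart from the other 7. Its 3′ control probe set for GAPDH read 6.28 above the 5′ one, against 0.20 to 0.37 on the other arrays, and the gap for ACTB was 6.88 against 2.59 to 3.47; this gap is a common measure of RNA integrity. The median difference of all genes was 0.20 at 24 h and between −0.02 and 0.00 at 2, 6 and 12 h, so the tested differences are also given without the 24 h pair, and the part of RNA quality in the 24 h values was not tested. Of 12 acinar secretory markers 8 were measured, and 5 of these, with HTN1, MUC7 and STATH among them, stayed under 3.74 on every array, the lower quartile of all gene values. PRH1, at 4.89 to 5.27, and AQP5, at 3.88 to 4.13, stayed above it on every array, and LPO read 3.53 to 3.81. The 8 epithelial markers were mostly low as well: KRT18, KRT5 and KRT19 stayed above that quartile on every array, EPCAM stayed under it, and their summed level was 34.8 to 41.0 on TNF arrays and 37.2 to 41.2 on BSA arrays. The keratins KRT8 and KRT18 were the brightest up to 12 h, and at 24 h KRT8 read 2.72 in TNF and 6.37 in BSA, and KRT18 7.36 in TNF and 9.84 in BSA. The summed level of 5 measured leukocyte markers was 19.0 to 19.9 on TNF arrays and 18.4 to 19.0 on BSA arrays, and 3 of the 5 stayed under that quartile on every array. Summed fibroblast markers (6) were 33.2 to 36.2 on TNF arrays and 33.9 to 34.6 on BSA arrays. Of these 6, 4 stayed above that quartile on every array, with COL3A1 at 8.91 to 9.93 and DCN at 6.82 to 8.80, and 1 stayed under it. Summed endothelial markers (4) were 16.5 to 17.2 on TNF arrays and 16.1 to 16.5 on BSA arrays. The part of other cell types in the results was not tested.

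Which of the caspase and gasdermin genes differed between TNF and BSA? CASP1 and CASP4, the inflammatory caspases, were higher in TNF at 6, 12 and 24 h, with a wider gap at each later time, and 24.1% of all genes were likewise higher at those 3 times. CASP6 was lower in TNF at all 4 times. CASP2 was lower by small amounts at each time, CASP9 was lower on its brighter probe set, and CASP8, CASP10 and GSDMD differed little at 2, 6 and 12 h. No gene of the 8 passed the test across all genes. With limma and Benjamini-Hochberg adjustment over 18239 genes, 0 of 8 passed an adjusted p of 0.05 over the 4 times, where 0.0164% of all genes passed, and 0 of 8 from 2 to 12 h, where 0.367% passed. At an unadjusted p under 0.05 the counts were 3 of 8 over the 4 times, beside 7.51% of all genes, and 5 of 8 from 2 to 12 h, beside 14.0%. The median difference of the 8 genes was −0.22 over the 4 times and −0.055 from 2 to 12 h, beside 0.04 and −0.01 for all genes.

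**Figure D1:**
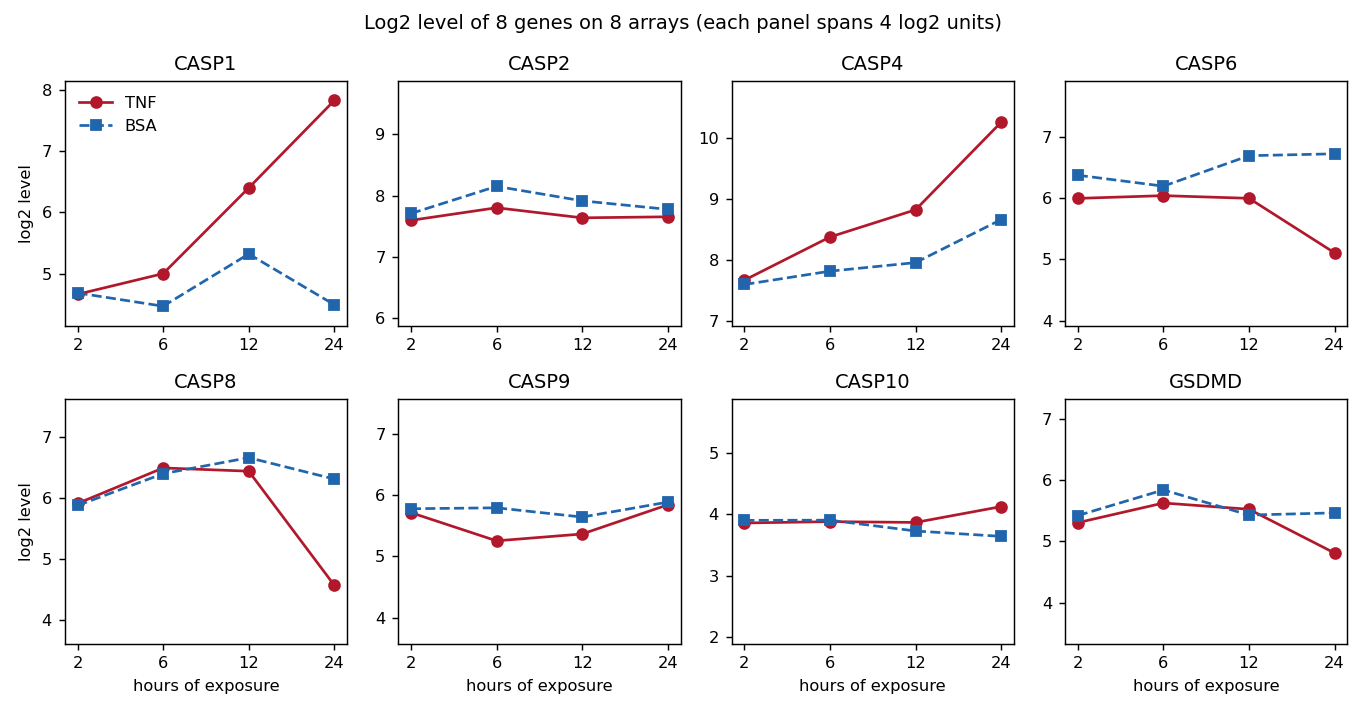
Log2 level (vertical axis, each panel spanning 4 log2 units) of the brightest probe set of each gene against hours of exposure, with TNF arrays as filled circles and BSA arrays as squares, 1 array per point and so no error bars. CASP1 ends at 7.83 in TNF and 4.49 in BSA, CASP4 at 10.3 and 8.66, while CASP6 and CASP8 end lower in TNF, at 5.11 and 4.57, than in BSA, at 6.73 and 6.305.

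CASP1 encodes the inflammasome protease. On its brightest probe set it read 4.66, 5.00, 6.40 and 7.83 in TNF at 2, 6, 12 and 24 h, against 4.68, 4.47, 5.32 and 4.49 in BSA. The ranges overlap, because the TNF arrays of 2 and 6 h lie among the BSA values, while those of 12 and 24 h lie above all 4 BSA arrays. The differences were −0.02, 0.53, 1.08 and 3.34. At 12 h CASP1 alone of the 8 was at least 2-fold higher, beside 1.29% of all genes, and none was 2-fold lower, beside 0.839%. At 2 and 6 h none was 2-fold apart: 0.493% and 1.38% of all genes were higher by that much, and 0.0439% and 0.384% lower. At 24 h CASP1 and CASP4 were 2-fold higher, beside 6.10%, and CASP6 and CASP8 2-fold lower, beside 6.67%. From 2 to 12 h its mean difference was 0.53 ± 0.20 (SE, 3 pairs of arrays; 95% interval 0.03 to 1.03), with adjusted p = 0.334 by limma. Over the 4 times it was 1.23 ± 0.56 (SE, 4 pairs) with adjusted p = 0.652, and higher in 3 of 4 pairs.

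The 9 probe sets of CASP1 mostly had the same sign at 6 and 12 h and spread widely at 24 h. All 9 were higher in TNF at 6 h, by 0.08 to 0.53, and 8 of 9 at 12 h, where the differences ran from −0.03 to 1.08 with a median of 0.69. At 24 h the 3 brightest were higher by 2.71 to 3.34, and the other 6 lay between −0.04 and 0.49. The fourth brightest was 0.70 higher at 12 h and −0.04 at 24 h. On that probe set the TNF arrays read 4.41, 4.58, 5.24 and 4.27, against 4.44, 4.37, 4.54 and 4.30 in BSA, so the 24 h TNF level was the lowest of the 8. The mean of all 9 probe sets gave 1.20 at 24 h in place of 3.34. Of the 9, 4 stayed under 3.74 on every array. Another probe set, which the annotation assigns to both CASP1 and its neighbour CARD16, read 6.64, 6.87, 7.56 and 8.09 in TNF, against 6.69, 6.15, 6.66 and 6.51 in BSA, and it is not counted among the 37.

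**Figure D2:**
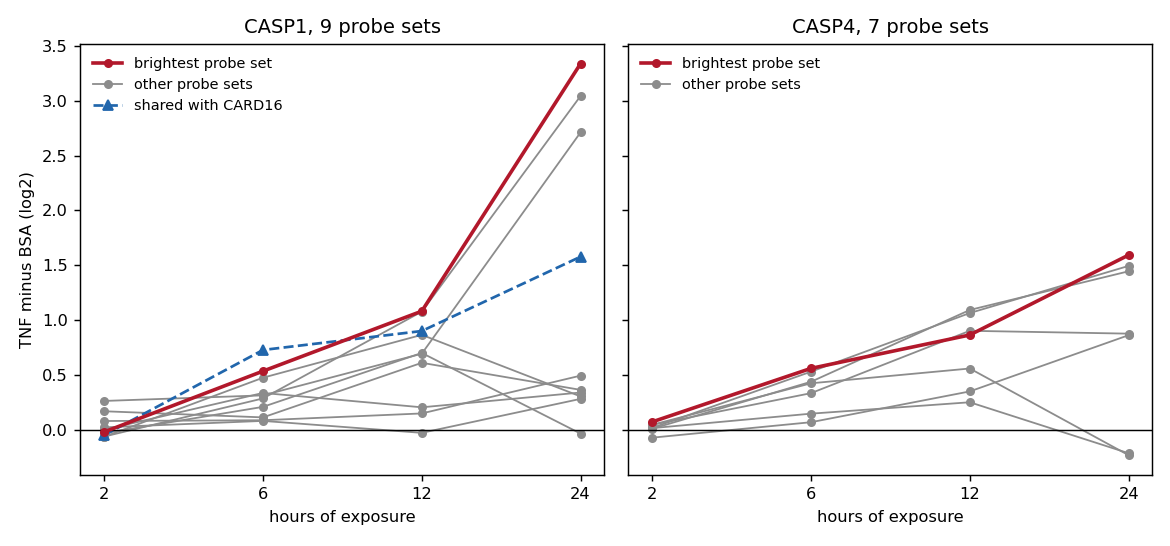
TNF minus BSA in log2 units at each time for every probe set of CASP1 (left) and CASP4 (right), with the brightest in red, the others in grey and the one shared by CASP1 and CARD16 as blue triangles, 1 pair of arrays per point. Differences widen together up to 12 h on most probe sets, and at 24 h they spread from −0.04 to 3.34 for CASP1 and from −0.23 to 1.59 for CASP4.

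CASP4, the intracellular lipopolysaccharide sensor, showed a similar course, and its BSA levels were higher at later times too. Its brightest probe set read 7.67, 8.38, 8.82 and 10.3 in TNF, against 7.60, 7.82, 7.96 and 8.66 in BSA. At each time the TNF array was above its BSA partner, although the BSA array at 24 h lay above the TNF arrays of 2 and 6 h. The differences were 0.07, 0.56, 0.86 and 1.59. All 7 probe sets were higher at 6 h, by 0.07 to 0.56, and at 12 h, by 0.25 to 1.09. At 24 h 5 of 7 were higher, and the 2 that were not read −0.23 and −0.21 there after 0.56 and 0.25 at 12 h. The mean difference from 2 to 12 h was 0.50 ± 0.15 (SE, 3 pairs; 95% interval 0.12 to 0.88), adjusted p = 0.272 by limma, and over the 4 times 0.77 ± 0.25 (SE, 4 pairs), adjusted p = 0.652. The mean of its 7 probe sets gave 0.83 at 24 h and 0.48 over the 4 times, and that of CASP1 0.53 over the 4 times.

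Both inflammatory caspases were near 0 at 2 h, and the fit from 2 to 12 h depended on which pairs of arrays it held. With the 6 and 12 h pairs alone CASP1 was 0.81 higher (adjusted p = 0.0142 by limma) and CASP4 0.71 higher (adjusted p = 0.0115), and these 2 of 8 passed. With the 2 and 6 h pairs alone CASP1 was 0.26 higher (adjusted p = 0.706 by limma) and CASP4 0.32 higher (adjusted p = 0.619), and without the 6 h pair they were 0.53 and 0.47 higher and did not pass either. The mean of probe sets gave 0.30 for CASP1 from 2 to 12 h. In the fit of 6 and 12 h, which had 1 residual degree of freedom per gene, 6.00% of all genes passed and 2.79% passed with a higher level in TNF. Among all 18239 genes CASP1 ranked 369th and CASP4 399th by mean difference from 2 to 12 h, counted from the highest. A difference that widened at every later time was found in 10.3% of genes, and in 1.11% it also reached 2-fold at 24 h, as it did for CASP1 and CASP4. The slope of the difference with time, fitted by limma as an interaction of treatment with log2 of the hours, was 0.86 ± 0.25 (SE) per doubling of time for CASP1 and 0.41 ± 0.16 for CASP4. Neither passed (adjusted p = 0.827 for both), nor did any other gene: 0 of 18239 passed, and 3.70% had an unadjusted p under 0.05. Without the 24 h pair the slopes were 0.42 and 0.31.

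Among 6106 other genes whose levels spanned at least 1 log2 unit, the 5 most like CASP1 over the 8 arrays were EIF2AK2, NCEH1, DDX60, HERC5 and DOCK10, with Pearson r from 0.985 to 0.995. For CASP4 they were SRGN, LUZP2, SPATS2L, HLA-F and MTRFR, with r from 0.983 to 0.994. The same 8 arrays underlie each of these values, and for CASP1 and CASP4 the highest of the 8 values is that of the 24 h TNF array. Without the 24 h pair the same genes had r from 0.974 to 0.993 with CASP1 and from 0.930 to 0.989 with CASP4, over 6 arrays. The genes were picked by r over 8 arrays that include these 6, so a high r is partly fixed by that choice. How far the likeness depends on the 24 h pair was therefore not tested. At 24 h the differences of these genes varied widely in size. Of the 5 for CASP1 the largest was that of DDX60, at −0.19, 1.13, 0.99 and 3.95 at 2, 6, 12 and 24 h. The smallest was that of DOCK10, at −0.09, 0.10, 0.365 and 1.38. Of the 5 for CASP4 the largest at 24 h was that of HLA-F, at 0.10, 0.74, 1.99 and 3.42. The smallest was that of LUZP2, at −0.009, 0.19, 0.275 and 0.67.

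GSDMD, the pore-forming target of both proteases, read 5.31, 5.63, 5.53 and 4.81 in TNF, against 5.42, 5.84, 5.43 and 5.47 in BSA. The arms overlap, with the TNF arrays of 2 and 24 h below all BSA arrays. Its differences were −0.12, −0.21, 0.10 and −0.66, and from 2 to 12 h the mean was −0.08 ± 0.09 (SE, 3 pairs; 95% interval −0.30 to 0.14; adjusted p = 0.739 by limma), and it ran from −0.17 to −0.01 with 1 of these pairs left out. On its second probe set, which stayed under 3.74, the difference was 0.02 at 24 h.

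CASP8 and CASP10 encode the apoptosis initiators below death receptors. CASP8 read 5.91, 6.49, 6.43 and 4.57 in TNF, against 5.87, 6.39, 6.66 and 6.305 in BSA on its brightest probe set. Up to 12 h the arms overlap, and at 24 h the TNF array is the lowest of the 8. The differences were 0.03, 0.09, −0.22 and −1.74. Only this probe set was at least 2-fold lower at 24 h, and the other 7 of CASP8 lay between −0.22 and 0.225 at that time, so that the mean of the 8 was −0.17. The second brightest read 5.61, 5.87, 5.80 and 5.56 in TNF, against 5.64, 5.64, 5.72 and 5.60 in BSA. CASP8 differed from 2 to 12 h by −0.03 ± 0.09 (SE, 3 pairs; 95% interval −0.25 to 0.19; adjusted p = 0.911 by limma).

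CASP10, the close relative of CASP8, stayed near the lower quartile of all genes. Its brightest probe set read 3.86, 3.88, 3.87 and 4.13 in TNF, against 3.90, 3.91, 3.73 and 3.64 in BSA. Differences were −0.04, −0.02, 0.14 and 0.49, and 4 of its 5 probe sets never reached 3.74. Those 4 differed by −0.002 to 0.146 at 24 h, and the mean of all 5 was 0.14. The mean from 2 to 12 h was 0.02 ± 0.08 (SE, 3 pairs), adjusted p = 0.921 by limma.

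CASP9, the apoptosome protease, had differences of opposite sign on its 2 probe sets up to 12 h. The brighter one read 5.72, 5.25, 5.37 and 5.84 in TNF, against 5.78, 5.79, 5.64 and 5.89 in BSA. Its differences were −0.065, −0.54, −0.28 and −0.04, with a mean from 2 to 12 h of −0.29 ± 0.11 (SE, 3 pairs; adjusted p = 0.323 by limma). On the other probe set TNF was 0.025, 0.11 and 0.185 higher at 2, 6 and 12 h and −0.55 at 24 h. The mean of both was −0.09 from 2 to 12 h and −0.295 at 24 h, and without the 6 h pair the brighter one averaged −0.17.

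CASP6, an executioner with a single probe set, read 6.00, 6.04, 6.00 and 5.11 in TNF, against 6.38, 6.20, 6.70 and 6.73 in BSA. Every TNF value lay below every BSA value, the only case among the 8 genes; of all genes 4.67% had no overlap, in either direction. From 2 to 12 h CASP6 was again the only one of the 8 with no overlap, beside 12.4% of all genes. A level lower in TNF at all 4 times was found in 9.44% of genes. The differences were −0.38, −0.16, −0.70 and −1.62. Its mean from 2 to 12 h was −0.41 ± 0.12 (SE, 3 pairs; 95% interval −0.70 to −0.12; adjusted p = 0.252 by limma), or −0.27 without the 12 h pair, and over the 4 times −0.71 ± 0.25 (SE, 4 pairs; adjusted p = 0.652). Its probe set carries the suffix _x_at, which marks probes that can also match other transcripts, and no second probe set is there to set beside it. The same suffix is on the brightest probe set of CASP8, the second of CASP2 and some of the brighter ones of CASP1 and CASP4.

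CASP2, the PIDDosome protease, read 7.59, 7.80, 7.635 and 7.65 in TNF, against 7.71, 8.15, 7.91 and 7.77 in BSA. Each TNF array was below its partner, with differences of −0.11, −0.35, −0.28 and −0.12, but the TNF value at 6 h exceeds the BSA values at 2 and 24 h, so the arms overlap. The second probe set was lower at each time too, at −0.135, −0.71, −0.34 and −0.35, and the third, under 3.74 throughout, differed by at most 0.09 in either direction. The mean from 2 to 12 h was −0.25 ± 0.08 (SE, 3 pairs), adjusted p = 0.289 by limma.

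**Figure D3:**
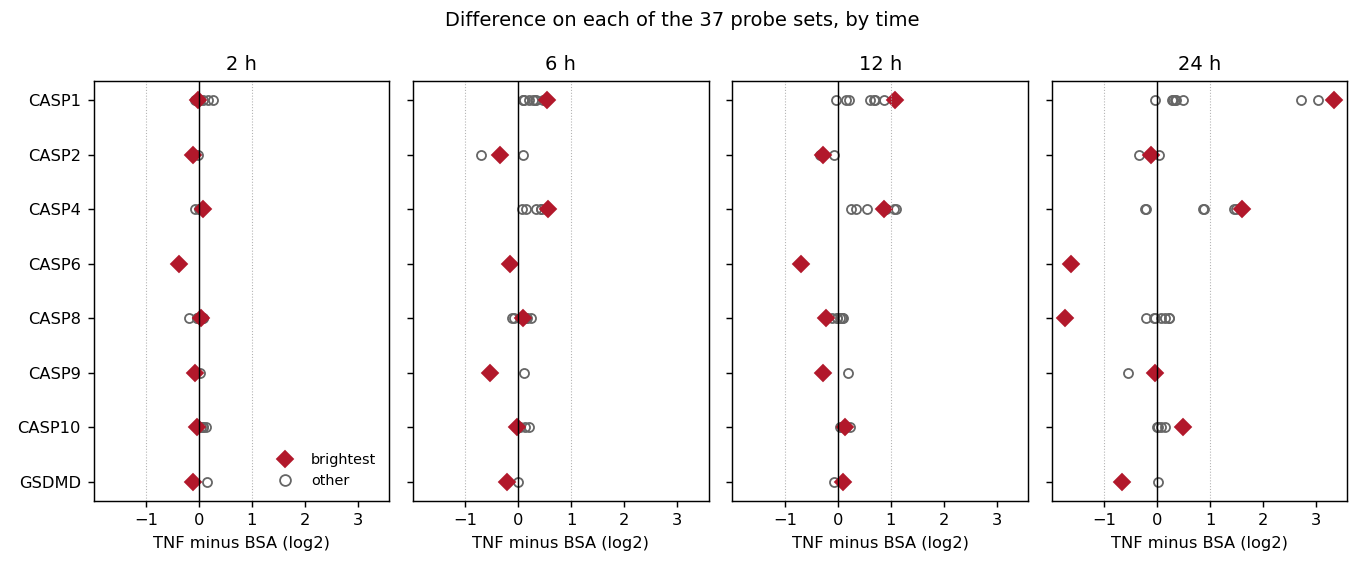
TNF minus BSA in log2 units (horizontal axis) for each of the 37 probe sets at 2, 6, 12 and 24 h, with genes down the page, the brightest probe set of each gene as a red diamond, the others as open circles and dotted lines at 2-fold in either direction. At 2 h all lie between −0.38 and 0.26, and at 24 h the range is −1.74 to 3.34.

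Over all 37 probe sets, 20, 27, 26 and 23 were higher in TNF at 2, 6, 12 and 24 h, beside 45.1%, 49.3%, 50.1% and 63.6% of all probe sets. None was 2-fold apart at 2 or 6 h. At 12 h 4 were at least 2-fold higher, 2 of CASP1 and 2 of CASP4, beside 1.11% of all probe sets, and at 24 h 6 were, 3 of each, beside 4.64%. The 2 that were at least 2-fold lower at 24 h, beside 10.0% of all probe sets, were those of CASP6 and CASP8. With limma fitted over all 45253 probe sets, 0 of 37 passed from 2 to 12 h, where 0.217% of probe sets passed, and 12 of 37 had an unadjusted p under 0.05, beside 12.6%. Over the 4 times 0 of 37 passed, beside 0.00442%. Of the 12, 5 belonged to CASP4, 3 to CASP1, 2 to CASP2 and 1 each to CASP6 and CASP9. Probe sets of 1 gene are read from the same arrays and can share transcripts, so they are not independent.

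How did genes beside these on the chromosome compare? The following genes were picked by map position in the RefSeq table (GRCh38.p14), after their values could be seen. In the chromosome 11 cluster CASP5, which lies between CASP4 and CASP1 and encodes another inflammatory caspase, differed by 0.05, 0.00, −0.06 and −0.01 on a probe set under 3.74 throughout, and its other 2 were between −0.25 and 0.065. CARD16, next to CASP1, encodes a protein resembling the caspase-1 recruitment domain that can bind caspase-1. It read 4.10, 4.53, 4.43 and 7.18 in TNF, against 4.21, 4.16, 4.004 and 3.83 in BSA, which made it 0.365, 0.43 and 3.35 higher at 6, 12 and 24 h, and its second probe set was 0.68 higher at 24 h. The brightest probe sets of CARD17P, CARD18 and CASP12 differed by at most 0.30 in either direction. On chromosome 2 CFLAR, which encodes c-FLIP, a catalytically inactive relative that blocks caspase-8, lies beside CASP10 and CASP8. Its brightest probe set read 8.73, 9.67, 9.84 and 9.73 in TNF, against 8.23, 7.92, 7.93 and 7.95 in BSA. Every TNF array was above every BSA array, beside 4.67% of all genes with no overlap in either direction. Of its 9 probe sets the second brightest differed by 0.43, 1.625, 1.94 and 1.755, and the dimmest by 0.06, 0.11, 0.09 and 0.53. On the brightest the differences were 0.50, 1.74, 1.91 and 1.78, and CFLAR did not pass from 2 to 12 h (1.39 ± 0.27, SE, 3 pairs, adjusted p = 0.180 by limma).

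**Figure D4:**
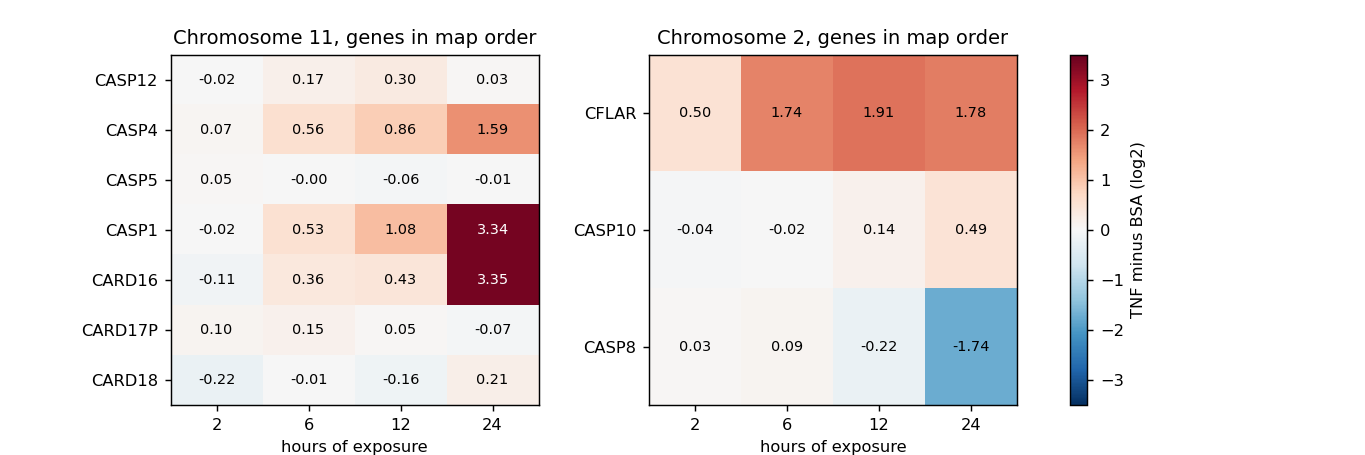
TNF minus BSA in log2 units (colour, with the value printed) at each time for the brightest probe set of the genes of the chromosome 11 cluster (left) and of CFLAR, CASP10 and CASP8 on chromosome 2 (right), in map order. CASP4, CASP1 and CARD16 are higher from 6 h, with CASP5 near 0 between CASP4 and CASP1, and CFLAR is at least 1.74 higher from 6 h while CASP10 and CASP8 stay within 0.22 up to 12 h.

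The other genes of these death pathways were read from 10 lists, with their counts set beside 0.318% of genes higher and 0.0493% lower from 2 to 12 h. In the death receptor complexes 1 of 10 measured genes passed from 2 to 12 h with a higher level in TNF, and 0 with a lower level. This was TNFRSF10B, a receptor for the death ligand TRAIL, with a mean difference of 0.82 ± 0.07 (SE, 3 pairs), adjusted p = 0.0240 by limma. Over the 4 times 0 genes of the list passed, and TNFRSF10B was 0.67 ± 0.13 higher (SE, 4 pairs; adjusted p = 0.502 by limma). These values come from the brightest of its 3 probe sets, which carries the suffix _x_at, and the others are not given here. TNFRSF10B read 9.56, 9.11, 9.06 and 9.83 in TNF, against 8.76, 8.22, 8.30 and 9.58 in BSA. FAS, another death receptor, was −0.035, 1.55, 1.94 and 2.93 without passing (adjusted p = 0.279). The list had median differences of −0.03, 0.21, 0.45 and 0.61 at 2, 6, 12 and 24 h.

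Interferon-linked transcription factors had 4 measured genes, of which 1 passed from 2 to 12 h with a higher level in TNF. This was IRF1, with a mean difference of 2.44 ± 0.11 (SE, 3 pairs), adjusted p = 0.00305 by limma, and at 24 h its difference was −0.19. It read 9.85, 9.51, 8.325 and 6.72 in TNF, against 7.24, 6.96, 6.16 and 6.91 in BSA, so its TNF level was lower at each later time. IRF1 was already 2.61 higher at 2 h, when CASP1 and CASP4 were −0.02 and 0.07. A link between IRF1 and these genes was not tested. IRF9, a subunit of the interferon-induced ISGF3 complex, was −0.13 at 2 h and 2.92, 3.17 and 3.85 higher afterwards, and did not pass (adjusted p = 0.282).

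Of 13 inflammasome sensors and adaptors 0 passed in either direction, in either fit. IFI16, a sensor of DNA, read 5.42, 6.10, 7.29 and 7.61 in TNF, against 5.51, 5.19, 5.58 and 5.69 in BSA, and differed by −0.08, 0.91, 1.71 and 1.92 (adjusted p = 0.330 from 2 to 12 h). MEFV, which encodes pyrin, was 0.055, 0.44, 0.615 and 0.245 higher. The list's medians were 0.00, 0.06, 0.11 and 0.31, beside −0.02, −0.01, −0.004 and 0.20 for all genes.

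Among 7 substrates and effectors of pyroptosis 0 passed. IL18, a cytokine that caspase-1 matures, read 4.85, 6.68, 6.34 and 6.72 in TNF, against 4.36, 4.59, 4.70 and 5.32 in BSA, which gave differences of 0.49, 2.09, 1.63 and 1.40 (adjusted p = 0.186 from 2 to 12 h). NINJ1, which ruptures the plasma membrane in the last step of lytic death, was 0.68, 1.13, 0.76 and −0.805, with adjusted p = 0.0600. The lists of 3 other caspases, 5 other gasdermins, 2 caspase-1 decoys, 4 apoptosome genes, 5 inhibitor of apoptosis genes and 2 PIDDosome genes had 0 members past the threshold in either fit. Over the same times their largest mean differences were 0.18 for CASP14, −0.12 for GSDME, 0.23 for CARD16, 0.22 for DIABLO, 0.29 for BIRC2 and −0.26 for CRADD. The next in each were 0.15 for CASP12, −0.07 for GSDMB, −0.13 for CARD18, 0.155 for APAF1, −0.24 for BIRC5 and −0.08 for PIDD1. GSDME, the gasdermin cut by caspase-3, was −2.44 at 24 h.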

How the data were processed

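Total RNA of NS-SV-AC cells (10 ng per array, labelled with a 3′ kit) was measured on 8 Affymetrix GeneAtlas arrays. Per the submitters' processing notes the deposited values were made with RMA (background correction, quantile normalisation and summary per probe set) and are on the log2 scale. RMA's software version is not given in the sources used here. This table had 49386 probe sets. Those with several symbols (1327), none listed (2713) or array controls (93) were left out, and old symbols were updated through Entrez identifiers. The brightest probe set, by mean over the 8 arrays, stood for a gene.

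Differences were tested two-sided with limma 3.58.1 in R 4.3.3 across all genes, with time as a factor (3 residual degrees of freedom over the 4 times, 2 from 2 to 12 h), or with treatment, log2 hours and their product (4), after a test on simulated data. Genes passed at a Benjamini-Hochberg adjusted p under 0.05. Arrays give no read depth, so their number limits the precision. The members, lists and tests were chosen with earlier results of these data known. Of each list, genes that passed and the 2 with the largest absolute difference from 2 to 12 h are named. RefSeq promoters matched 5 members by symbol; GSDMD was not searched. Alternatives are in the closing section.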

Additional observations from a re-analysis of the deposited data

Results flagged for a closer look

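Each gene's 4 TNF levels, 4 BSA levels and 4 differences were searched for a value far from the other three by Dixon's test (24 groups, at its 95% critical value). Chance flags about 1 in 20 such groups, and arrays of different times are not replicates. CASP6 at 24 h, at 5.11, stood apart among the TNF arrays (ratio 0.953), as did CASP10 at 24 h, at 4.13 (ratio 0.920). Both values come from the array with the GAPDH gap of 6.28. GSDMD at 6 h, at 5.84, stood apart among the BSA arrays (ratio 0.895).

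The probe set that CASP1 shares with CARD16 belongs to no single gene and so entered no fit. In TNF it read 7.56 at 12 h and 8.09 at 24 h, above the highest BSA value of 6.69.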

How the results depend on the processing

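The count of the 8 genes that passed was 0 under every alternative over the 4 times, and from 2 to 12 h it was 0 except when 1 pair of arrays was left out, which gave 0 to 2 (2 without the 2 h pair, CASP1 and CASP4). The number of all genes that passed over the 4 times was 3, and became 1 with the mean of probe sets, 62 with array quality weights, 5 with a trend in the variance prior and 0 to 67 with 1 pair left out (67 without 24 h). From 2 to 12 h it was 67, and became 36 with the mean of probe sets, 160 with the variance trend and 0 (without 6 h) to 1094 (without 2 h) with 1 pair left out. The size for CASP1 over the 4 times was 0.53 with the mean of probe sets, 0.59 with array weights and 0.53 without the 24 h pair, in place of 1.23. Some values near 0 changed sign. From 2 to 12 h CASP8 was 0.0193 with the mean of probe sets and 0.0036 after a second quantile normalisation, and with 1 pair left out it ran from −0.0936 to 0.0634 (without 12 h). CASP10 ran from −0.0332 (without 12 h) to 0.0579. Slopes with time turned to −0.0571 (mean of probe sets) and −0.10 (without 24 h) for CASP9, 0.0309 (quantile) for CASP2 and 0.0687 (without 24 h) for GSDMD. The causes were not tested. The checks without 24 h of array overlap and of the genes most like CASP1 and CASP4 were chosen after seeing the data. At 24 h CASP9 read 0.26 and CASP2 0.02 after the second quantile normalisation. All 8 members kept their values when dim genes were left out. No paired analysis by replicate number was possible because the labels give none; time already pairs the arrays.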
